A study of Mus musculus with 8 samples.

Results

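Luminal progenitors of the post-involution gland were the cells that the submitters' deposited annotation assigns to cluster C7, named Lp-PI in the study. Members were chosen by that cluster number, a pass on every quality flag, and an origin in 1 of the 2 post-involution libraries, joined by library and cell barcode. This gave 824 cells of mouse PI 1 and 1101 cells of mouse PI 2, together 1925 of 25009 cells that passed and of 5641 passing post-involution cells. A further C7 cell lay in the library NP 2 and was not counted as a member. C7 made up 57.2% of the epithelial cells of PI 1 (exact Clopper-Pearson 95% interval 54.6% to 59.8%) and 26.6% of those of PI 2 (25.3% to 28.0%). The intervals cover counting error within 1 mouse only and not the spread between animals. C3, the differentiated hormone-sensing luminal cluster of the same glands (Hsd-PI), held 412 cells in PI 1 and 2487 in PI 2.

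The series holds droplet-based transcriptomes of single cells of the mammary epithelium from 8 C57BL/6N mice, 1 mouse per library and 2 per stage. Glands came from nulliparous mice 8 weeks old (NP), from mice at day 14.5 of gestation (G), from mice at day 6 of lactation (L), and from mice 11 days after natural weaning of the litter (PI). No transgene or drug treatment is named in the labels. Glands were digested enzymatically and live cells were sorted on the epithelial surface protein EpCAM, with cells carrying CD31, CD45 or Ter119 gated out, before capture with 3′ chemistry that counts unique molecular identifiers (UMIs), each standing for a captured transcript. Per the study's supplement PI 1 was in dioestrus and PI 2 in oestrus, so oestrous stage cannot be told apart from any other difference between these 2 mice.

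Luminal progenitors line the ducts and alveolar buds of the mammary gland and are known as the source of the alveolar cells that make milk. During pregnancy and lactation prolactin acts through its receptor, the kinase JAK2 and the transcription factor STAT5 to switch on the casein genes. After weaning the alveoli are cleared and the gland returns to a ductal tree, a process in which STAT3 targets, lysosomal proteases and acute phase proteins are known to take part. The hormone-sensing luminal lineage, in which oestrogen, progesterone and prolactin receptors are concentrated, is the other luminal lineage and serves here as the comparison within the same mice.

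Libraries of the 2 post-involution mice held 13785920 and 30591089 UMIs. The median C7 cell had 6483.5 UMIs and 2181.5 genes in PI 1 and 5579 UMIs and 2000 genes in PI 2, with 0.561% and 0.516% mitochondrial UMIs. The least covered C7 cell held 2700 UMIs, so that every member could be thinned to 2000 UMIs where cells of unequal depth were compared. No passing cell shared its barcode with another library. In PI 1 176 and in PI 2 177 C7 cells held over 2 times the median UMI total of their mouse. No doublet caller was run, and without these cells 231 genes in place of 255 varied between C7 cells by the measure described further on. Markers of other cells were low in the summed C7 cells. The 12 immune markers summed to 24.2 and 36.6 CPM (UMIs per 1000000 UMIs of the sum), the 7 endothelial ones to 1.35 and 7.28 CPM, the 6 fibroblast ones to 0.947 and 21.2 CPM, and the 10 basal and myoepithelial ones to 89.5 and 245 CPM. *Cd3e* of T cells had no UMI in C7 of either mouse.

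Levels below are CPM of the UMIs summed over all C7 cells of a mouse, so that the mouse and not the cell is the replicate. Because 3′ UMIs count molecules, levels of different genes were compared without division by length. The 6 genes given for the cluster were checked against C3 of the same mice and against C6, the luminal progenitors of the nulliparous gland (Lp-NP). *Aldh1a3*, an aldehyde dehydrogenase that marks luminal progenitors, stood at 396 CPM (PI 1) and 287 CPM (PI 2) in C7, at 0.600 and 1.22 CPM in C3, and at 2035 and 1759 CPM in C6 of the nulliparous mice. *Cd14*, the lipopolysaccharide co-receptor, had 885 and 572 CPM in C7 against 30.9 and 25.9 CPM in C3. *Elf5*, the transcription factor of the alveolar lineage, had 179 and 150 CPM against 6.00 and 7.40 CPM. These 3 genes separated C7 from C3 in both mice.

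*Csn2*, which encodes β-casein, was at 1296 and 1683 CPM in C7 and at 6.90 and 9.27 CPM in C3. *Spp1*, which encodes the secreted phosphoprotein osteopontin, had 2036 and 2563 CPM in C7 and 8.10 and 10.7 CPM in C3. Both were far lower in nulliparous C6, where *Csn2* had 0.604 and 0.415 CPM and *Spp1* 1.51 and 22.4 CPM. The acute phase haemoglobin-binding protein *Hp* did not mark C7 alone. It had 2085 and 3571 CPM in C7 and 943 and 1518 CPM in C3, and only 8.15 and 20.3 CPM in nulliparous C6. *Hp* was high in C7 and C3 alike, and nulliparous hormone-sensing cells were not compared for it. The other 5 genes set C7 apart from C3 as the label says. They did not mark C7 alone either, since C1, the hormone-sensing progenitors of the same glands, held them too. In thinned cells *Spp1* was found in 35.5% (PI 1) and 51.2% (PI 2) of C1 cells, against 36.0% and 51.2% in C7. *Csn2* had 53.3% and 57.4% against 65.0% and 77.8%, and *Cd14* 48.6% and 35.6% against 64.3% and 59.1%. *Aldh1a3* had 27.1% and 18.7% against 28.4% and 27.8%, and *Elf5* 22.4% and 15.1% against 26.8% and 23.2%.

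**Figure D1:**
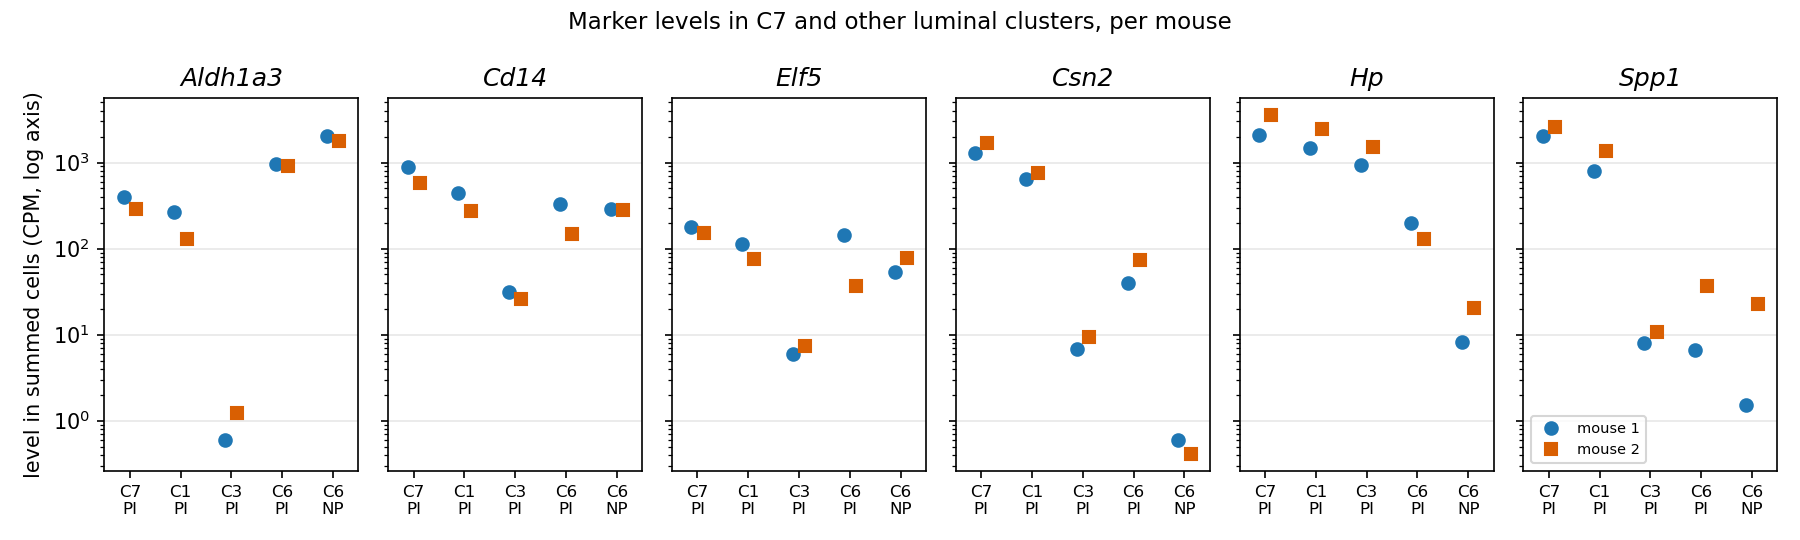
Levels of the 6 marker genes (CPM, log axis) in C7 and in 4 other luminal groups named on the horizontal axis with their stage, 1 point per mouse. *Csn2* and *Spp1* lie above 1000 CPM in C7 and below 30 CPM in C3 and in nulliparous C6, whereas *Hp* is high in C7 and C3 alike.

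C7 held transcripts of most milk protein genes, in glands taken 11 days after weaning. The caseins lie together on chromosome 5 of GRCm38 (mm10), with *Csn1s1* at chr5:87666208-87682578 on the plus strand, *Csn2* at chr5:87692624-87699630 on the minus strand and *Csn3* at chr5:87925579-87932665 on the plus strand. The letters TTCNNNGAA, the pattern that STAT5 and STAT3 dimers bind, were searched on both strands in RefSeq promoter windows of GRCm38.p6, each with 250 bases before and 50 after a start site. The pattern reads the same on both strands. Of 32851 such windows, 8.30% held it. Among the 8 milk protein genes 6 had a window, and 4 of these held the letters, namely *Csn1s1*, *Csn2*, *Csn1s2a* (20 bases after the start) and *Glycam1*. The upstream parts of 3 of them are shown because these genes bracket the milk profile of C7: *Csn1s1* and *Csn2* were abundant in C7 and *Glycam1* had no UMI there. The lines give chr5:87665958-87666207 (plus strand), chr5:87699426-87699675 (minus strand) and chr15:103565082-103565331 (minus strand), each 5′ to 3′ on the gene's strand and ending at the base before the RefSeq start site, with the matched letters in capitals.
Csn1s1: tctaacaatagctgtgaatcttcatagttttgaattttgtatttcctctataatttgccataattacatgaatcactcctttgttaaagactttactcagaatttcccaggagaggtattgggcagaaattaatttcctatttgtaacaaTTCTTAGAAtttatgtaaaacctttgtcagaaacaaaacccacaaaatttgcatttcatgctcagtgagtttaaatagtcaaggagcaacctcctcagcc
Csn2: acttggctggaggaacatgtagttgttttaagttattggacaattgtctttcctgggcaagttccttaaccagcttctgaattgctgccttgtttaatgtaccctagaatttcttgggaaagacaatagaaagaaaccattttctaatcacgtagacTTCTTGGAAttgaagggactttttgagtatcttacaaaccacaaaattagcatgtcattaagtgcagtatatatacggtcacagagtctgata
Glycam1: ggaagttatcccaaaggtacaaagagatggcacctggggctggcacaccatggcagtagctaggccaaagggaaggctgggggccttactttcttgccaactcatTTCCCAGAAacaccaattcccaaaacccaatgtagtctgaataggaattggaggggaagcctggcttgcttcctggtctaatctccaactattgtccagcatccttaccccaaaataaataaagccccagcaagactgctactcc
The match began 100 bases before the start in *Csn1s1* (position -100), at position -93 in *Csn2* and at position -145 in *Glycam1*. A match is a description of letters and not a measured binding site. The 3 windows alike held the pattern, while *Csn1s1* and *Csn2* were abundant in C7 and *Glycam1* had no UMI there. The part of the pattern in these levels was not tested. For *Csn2* the gene span given above reaches further upstream than the RefSeq start, so that most of the printed window lies inside that span and its positions hold for the RefSeq start only.

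Milk protein genes took 1.37% of all C7 UMIs in PI 1 and 1.47% in PI 2. In C3 of the same libraries they took 0.00756% and 0.00834%. The share in nulliparous C6 was 0.0770% and 0.144%, and in the differentiated alveolar cells of gestation (C8, Avd-G) 9.67% and 5.74%. The alveolar progenitors of gestation (C10, Avp-G) had 0.408% and 0.203%. Both C7 values lay above those of C6 and C10 and below those of C8.

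The members of the list were unequally represented. κ-casein (*Csn3*), which coats casein micelles, led with 6626 and 6106 CPM, and αs1-casein (*Csn1s1*) had 4939 and 5908 CPM. *Csn1s2a* had 626 and 890 CPM, and *Lalba*, the α-lactalbumin subunit of lactose synthase, 150 and 69.7 CPM. The whey gene *Wap* was at 7.84 and 12.9 CPM, and *Csn1s2b* at 11.1 and 9.29 CPM. *Glycam1*, which encodes a secreted mucin-like glycoprotein of milk, was found in 0 of 824 and 0 of 1101 cells, which allows a share of cells with a UMI of up to 0.364% and 0.272% by a floor of 3 counts, or 0.447% and 0.334% by the exact 95% interval. In gestation C8 *Glycam1* had 5731 and 2431 CPM and *Wap* 410 and 87.7 CPM. The order of the milk genes also differed from C8. There *Csn1s2a* reached 39297 and 21270 CPM and exceeded *Csn3* (4958 and 2836 CPM), whereas in C7 *Csn3* exceeded *Csn1s2a* in both mice.

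The milk transcripts were spread over most C7 cells. In cells thinned to 2000 UMIs at least 1 *Csn2* UMI was found in 65.0% of C7 cells of PI 1 (exact 95% interval 61.7% to 68.3%) and 77.8% of those of PI 2 (75.3% to 80.3%). The same share in C3, a cluster of the hormone-sensing lineage taken as the background for these libraries since free RNA itself was not measured, was 1.21% and 1.89%. Without thinning the C7 shares were 82.4% and 88.8%, at median depths of 6483.5 and 5579 UMIs, and the C3 shares 5.34% and 5.39%, at 7179 and 5638 UMIs. Thinned cells held *Csn3* in 99.2% and 99.4% of cases. Intervals cover counting error within 1 mouse only.

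Single cells formed a continuous range of milk protein content. In thinned cells the share of milk protein UMIs had a median of 1.15% in PI 1, with the 10th and 90th percentiles at 0.4% and 2.55%, and a median of 1.30% in PI 2, with 0.5% and 2.75%. The highest cell had 5.50% in PI 1 and 12% in PI 2. The histogram of single cells had 1 main mass in each mouse and a tail to the right.

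**Figure D2:**
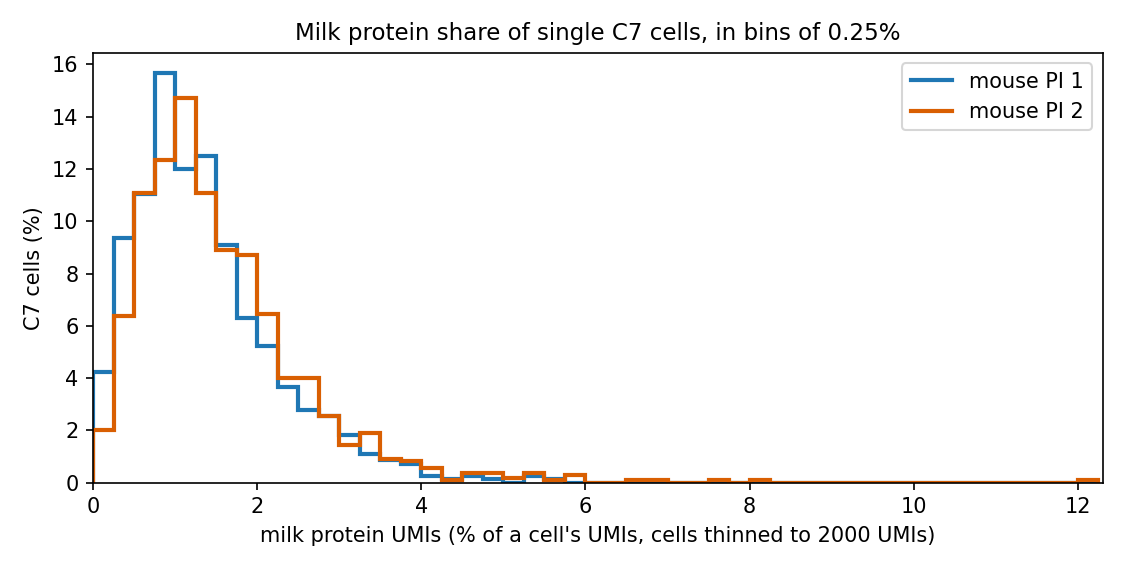
Percent of C7 cells of each mouse (vertical axis) by the share of milk protein UMIs in the cell (horizontal axis, bins of 0.25%, cells thinned to 2000 UMIs). Both mice have their main mass between 0.5% and 2.5%, and single cells reach 5.50% (PI 1) and 12% (PI 2).

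Across all genes C7 and C3 of the same mice were far apart, in a comparison that carries no test because the clusters were defined on these counts. Of 5920 genes with at least 20 CPM in C7 or C3 of both mice, 757 (12.8%) were at least 2-fold higher in C7 in both mice and 911 (15.4%) at least 2-fold lower, on the scale of log2(CPM + 0.5). With TMM scaling in place of UMI totals the counts were 881 and 734, so that which side was larger depended on the scaling. The median log2 ratio of all genes moved from -0.14 to 0.08 in PI 1 and from -0.05 to 0.02 in PI 2 with this scaling. With UMI totals and the ratio of each gene averaged over the 2 mice, it was -0.09 over all 5920 genes.

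By the naming rule, the genes furthest above C3 were *Spp1*, *Trf*, *Csn3*, *Car2*, *Wfdc18*, *Csn2*, *Aldh1a3*, *Cck*, *Btn1a1* and *Lcn2*. *Trf*, the iron carrier transferrin, had 8998 and 11190 CPM in C7 and 42.6 and 42.7 CPM in C3. *Lcn2*, the siderophore-binding lipocalin, had 9996 and 10297 CPM against 71.1 and 49.1 CPM. With *Krt18* these were among the most abundant transcripts named here. *Car2*, a carbonic anhydrase, had 234 and 214 CPM in C7 and 0.300 and 0.644 CPM in C3. *Wfdc18*, a secreted whey acidic protein-domain gene, had 2842 and 2083 CPM against 10.8 and 10.8 CPM. *Cck*, which encodes cholecystokinin, had 626 and 1026 CPM against 2.70 and 5.73 CPM. *Btn1a1*, the butyrophilin of the milk fat globule membrane, had 171 and 175 CPM against 0.600 and 0.708 CPM. All of them were above C3 by at least 7.13 on the log2 scale in both mice.

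The genes furthest below C3 were *Ptn*, *Ido1*, *Cxcl15*, *Tspan1*, *Cited1*, *Fgb*, *Fgg*, *Agtr1a*, *AW112010* and *Cldn10*. The growth factor pleiotrophin (*Ptn*) had 19.3 and 33.1 CPM in C7 and 3010 and 4643 CPM in C3. *Cited1*, a transcriptional co-regulator of hormone-sensing cells, had 14.7 and 8.79 CPM against 1550 and 894 CPM. The fibrinogen chain *Fgb* had 4.46 and 6.02 CPM against 784 and 625 CPM. Log2 ratios of these 10 genes ran from -7.57 to -6.24 over the mice.

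Gene lists drawn up for this gland placed the differences by function, and each is given with its count beside the shares of all genes above. All 5 milk protein genes that passed the level filter were higher in C7, with a median log2 ratio of 7.40. List medians of C7 against C3 are those of ratios averaged over the 2 mice. Of 16 milk fat genes 12 were higher, 2 lower and 2 neither, with a median of 3.73. *Plin2*, the coat protein of lipid droplets, had 1432 and 1282 CPM in C7 and 48.0 and 54.8 CPM in C3, and *Xdh*, which binds butyrophilin at the apical membrane, had 105 and 88.7 CPM against 3.30 and 2.32 CPM. The 2 that were lower, *Dgat2* and *Scd2*, act in triglyceride synthesis and desaturation. *Dgat2* had 7.71 and 8.41 CPM in C7 and 51.6 and 50.1 CPM in C3.

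All 11 luminal progenitor genes that passed were higher, with a median of 5.10. *Kit*, the stem cell factor receptor, had 42.5 and 55.5 CPM against 1.80 and 0.386 CPM. The transcription factor *Sox10* had 60.6 and 52.1 CPM against 0.600 and 0.515 CPM. All 13 hormone-sensing genes were lower, with a median of -4.80, among them the progesterone receptor *Pgr* (2.30 and 4.27 CPM against 138 and 203 CPM). The prolactin receptor *Prlr* stood at 72.1 and 92.5 CPM in C7 and at 2533 and 3079 CPM in C3, so that the cluster with the milk transcripts had by far the less *Prlr* transcript of the pair.

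All 10 acute phase and mucosal defence genes of the list that passed the level filter were higher in C7, with a median of 5.34. The list holds no fibrinogen chain, and *Fgb* and *Fgg*, which are acute phase genes too, were among the 10 genes furthest below C3. *Ltf*, the iron-binding lactoferrin, had 4498 and 2829 CPM against 33.0 and 16.5 CPM, and the polymeric immunoglobulin receptor *Pigr*, which carries IgA into milk, 28.1 and 22.5 CPM against 0.600 and 0.386 CPM. *Hp* was the member nearest to equality, with log2 ratios of 1.15 and 1.23. Of 15 involution and clearance genes 7 were higher, 1 lower and 7 neither. *Igfbp5*, a binding protein of insulin-like growth factors, had 2033 and 2022 CPM against 28.5 and 11.5 CPM, whereas *Stat3* had 269 and 224 CPM against 172 and 125 CPM and counted as neither.

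Of 9 chemokine and cytokine genes 8 were higher and *Cxcl15* lower. The neutrophil chemoattractant *Cxcl1* had 3014 and 2286 CPM in C7 and 37.8 and 57.1 CPM in C3, and *Csf3*, the granulocyte colony-stimulating factor, 1832 and 1224 CPM against 17.4 and 10.9 CPM. Antigen presentation genes leaned the other way, with 1 higher, 3 lower and 2 neither of 6. *B2m*, the light chain of class I molecules, had 586 and 465 CPM against 1864 and 1944 CPM, and *Cd74*, the class II invariant chain, 26.6 and 22.7 CPM against 5.10 and 8.05 CPM. Of 15 dissociation stress genes 3 were higher and 12 neither, with a median of 0.40. The remaining lists were small or mixed. Of 7 genes of prolactin receptor and STAT5 signalling, *Cish* was higher, 3 were lower and 3 neither. *Cish*, a feedback inhibitor that STAT5 induces, had 41.3 and 39.8 CPM against 13.8 and 6.82 CPM. *Krt7* and *Krt19* were lower while *Krt8* and *Krt18* were neither. Of 6 cholesterol genes 2 were lower and 4 neither, of 5 interferon genes 2 were lower and 3 neither, and of 2 cell division genes *Pcna* was higher. *Krt14* and *Krt17* were the only basal markers that passed and both were higher, at 25.6 and 77.6 CPM for *Krt14*. No immune, endothelial or fibroblast marker reached 20 CPM in both mice.

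**Figure D3:**
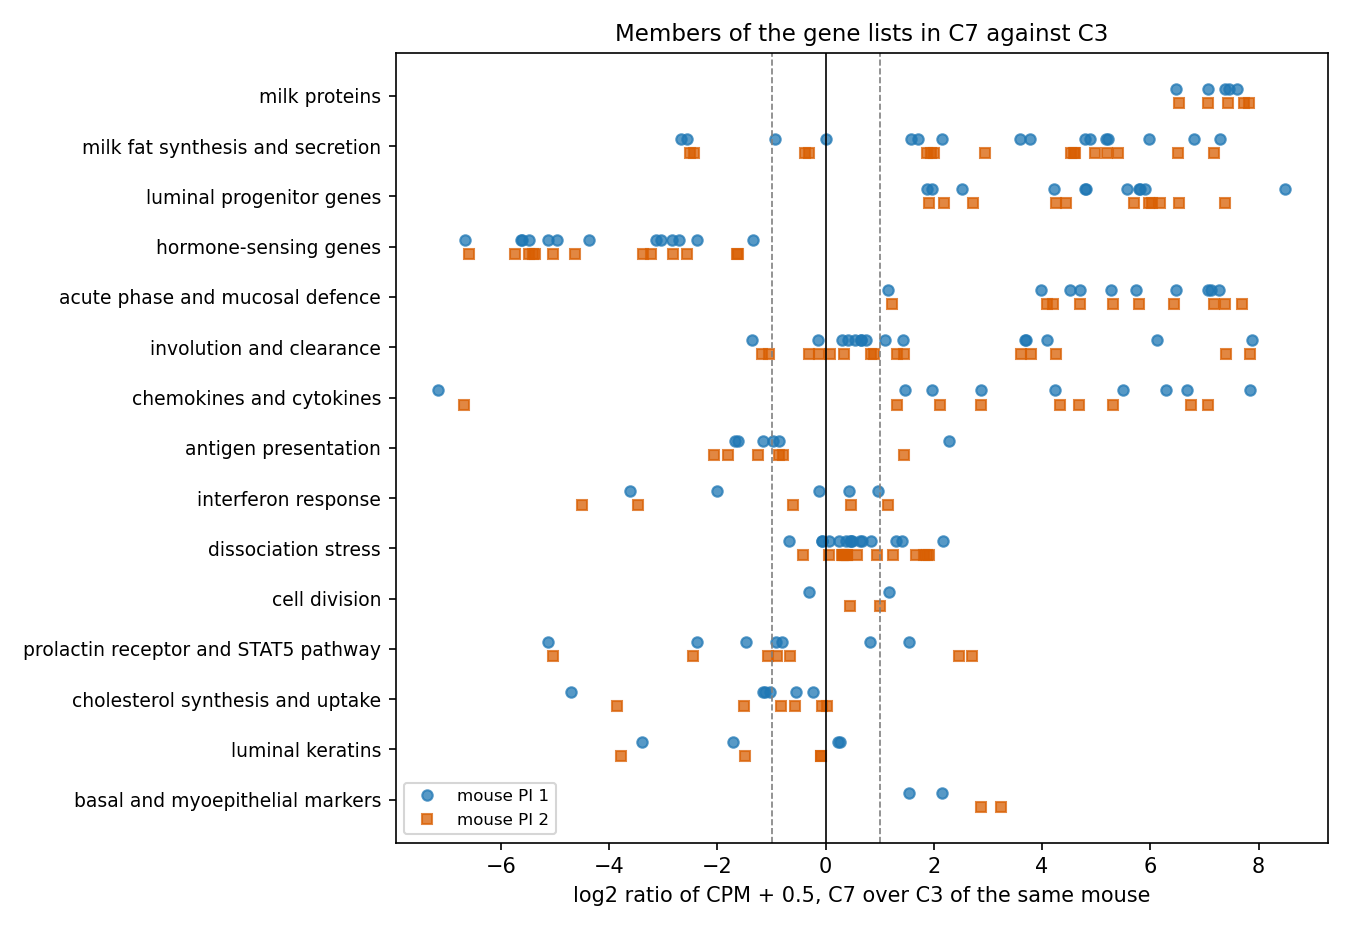
Log2 ratio of C7 over C3 within each post-involution mouse (horizontal axis) for the members of the gene lists (vertical axis). Milk protein, luminal progenitor and acute phase genes lie to the right in both mice and hormone-sensing genes to the left, with medians of 7.40, 5.10, 5.34 and -4.80.

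C7 cells also differed among themselves. For each gene and mouse the variance of Pearson residuals was computed, which is near 1 where a gene varies only as much as counting and cell depth make it vary. Of 4984 genes with at least 20 CPM in C7 of both mice, 367 had a variance of at least 2 in PI 1 and 267 in PI 2, and 255 (5.12%) in both. The shared genes were 69.5% of the list of PI 1 and 95.5% of that of PI 2. The measure favours abundant genes. Among 257 genes with at least 500 CPM in both mice 42.8% were variable. When every cell was thinned to 2000 UMIs 104 genes stayed at or above 2 in both mice, all of them among the 255, and 17 of the 20 most variable genes were the same.

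*Spp1* varied most, with residual variances of 42.2 and 47.4 against 1.05 and 1.15 in C3. A UMI of it was found in 47.0% and 62.7% of C7 cells, and the 10% of cells with the most held 75.6% and 61.2% of its UMIs after scaling. *Cst3*, the protease inhibitor cystatin C, followed with 34.4 and 43.6. Next came *Cxcl1* with 38.9 and 33.9 and *Cxcl2* with 33.2 and 31.9. The chemokines differed in how many cells held them. *Cxcl1* had a UMI in 77.9% and 71.4% of C7 cells, and the 10% of cells with the most held 49.3% and 54.1% of its UMIs. *Cxcl5* had a UMI in 18.1% and 13.6% of cells, and for it the same 10% held 94.0% and 96.5%. Of 8 chemokine and cytokine genes measured, 5 were variable.

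Of the milk protein genes all 5 measured were variable, between 3.90 for *Lalba* in PI 2 and 15.2 for *Csn1s1* in PI 1. *Csn2* had 14.4 and 13.2, against 0.966 and 1.18 in C3. The immediate early and stress genes were variable too, all 15 of 15. *Fos* had 40.0 and 26.8 and *Atf3* 35.5 and 20.8. Both also varied in C3, where *Fos* had 10.6 and 8.89 and *Atf3* 17.2 and 9.86. The list varied in both clusters, and its part in the variation of other genes was not tested. *Ltf* (29.5 and 28.0), *Hp* (20.5 and 21.1), *Wfdc18* (33.5 and 29.8), *Csf3* (29.4 and 26.7), *Crip1* (27.7 and 22.2), *Gm42418* (22.1 and 28.9), *Fth1*, *Hspb1* (19.0 and 14.7), *Csn3*, *Krt18* and *Nfkbia* completed the 20 most variable genes. Of 11 luminal progenitor genes 4 were variable, namely *Aldh1a3* (11.3 and 7.21), *Cd14*, *Lypd3* and *Cyp24a1*. *Kit* and *Elf5* were not among them. In the other lists 6 of 10 acute phase genes were variable, 6 of 15 involution genes and 4 of 14 milk fat genes. So were 3 of 5 antigen presentation genes, 3 of 4 hormone-sensing genes and all 4 luminal keratins. Over all genes the median variance was 1.10 in PI 1 and 1.07 in PI 2.

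**Figure D4:**
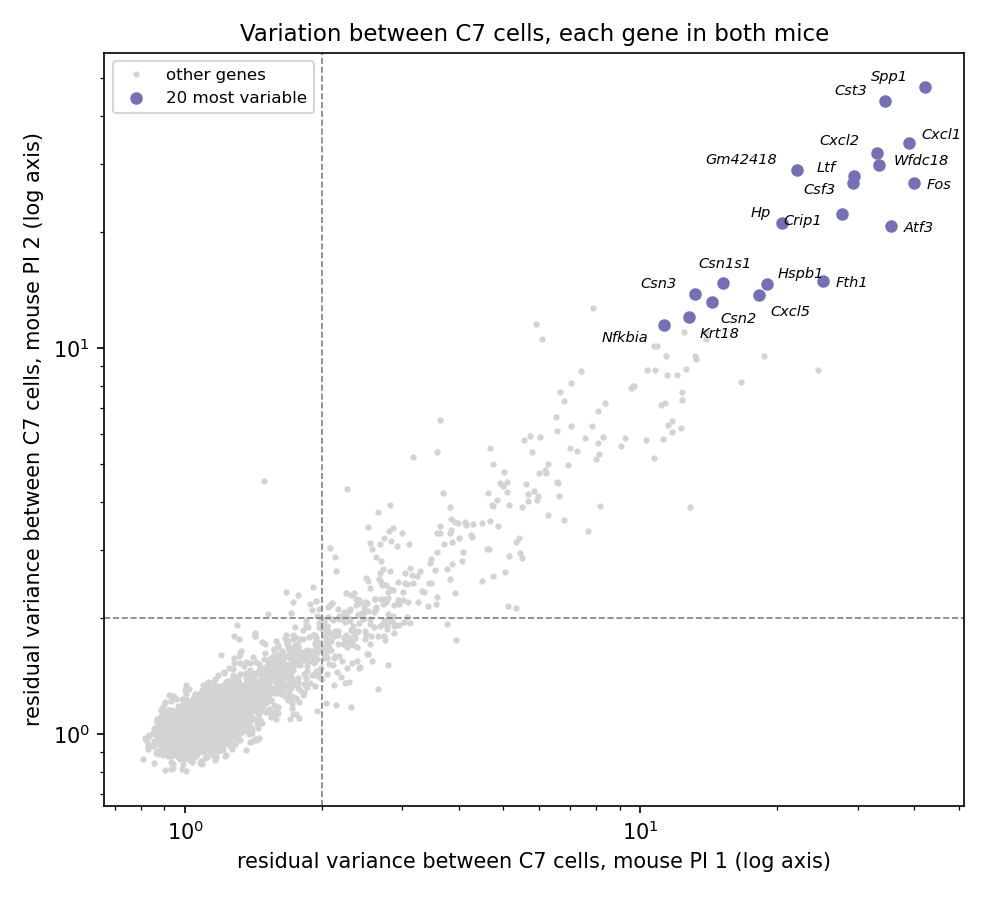
Residual variance of each gene between C7 cells of PI 1 (horizontal, log axis) and of PI 2 (vertical, log axis), with dashed lines at 2 and the 20 most variable genes named. The order of genes was alike in the 2 mice, and *Spp1* lies at the top right with 42.2 and 47.4.

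Genes that moved with β-casein from cell to cell were mostly other milk genes. Of 4983 genes 13 had a Pearson correlation of residuals with *Csn2* of at least 0.2 in both mice, over 824 and 1101 cells, and none was at or below -0.2 in both. Cells of 1 library share depth and free RNA, so these values are descriptions. The closest were *Csn1s1* with 0.62 and 0.60 and *Csn1s2a* with 0.66 and 0.58. *Folr1*, a folate receptor, followed with 0.40 and 0.38, and then *Cck* (0.31 and 0.44), *Cst3* (0.30 and 0.37), *Csn3* (0.30 and 0.34), *Cyb5a*, *Pkib* and *Btn1a1* (0.23 and 0.34). *Lalba* was less tied to the caseins, with 0.09 and 0.23 for *Csn2* and 0.18 and 0.20 for *Csn1s1*. *Spp1*, although the most variable, had 0.09 and 0.10 with *Csn2*, and *Hp* -0.00 and -0.03.

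The progenitor marker *Aldh1a3* had fewer companions. Only *Fcgbp* (0.26 and 0.23) and *S100a6* (0.30 and 0.21), a small calcium-binding protein that also marks hormone-sensing cells, reached 0.2 in both mice, and *Aldh1a3* with *Csn2* had 0.13 and 0.14. Progenitor and milk transcripts occurred in the same cells. In thinned cells *Csn2* was found in 72.6% of the 234 *Aldh1a3*-positive C7 cells of PI 1 (exact 95% interval 66.5% to 78.3%) and in 62.0% of the 590 others (58.0% to 66.0%). In PI 2 the shares were 84.3% of 306 cells (79.7% to 88.2%) and 75.3% of 795 cells (72.2% to 78.3%). The milk transcripts were thus found in cells with and without *Aldh1a3*. Other pairs gave smaller or opposite differences. *Csn1s1* was found in 94.4% of *Aldh1a3*-positive and 93.4% of other cells in PI 1 and in 97.7% and 95.8% in PI 2, and *Csn2* in 62.7% of *Kit*-positive and 65.3% of other cells in PI 1 and in 84.1% and 77.2% in PI 2. Cells are not replicates, and no test was run.

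Whole gene lists were compared in the same way by the Spearman correlation, across thinned cells, of the UMI share of each list. Of 153 pairs of 18 lists 5 reached 0.2 in size with the same sign in both mice, 4 positive and 1 negative. A rise of 1 list lowers the room for the others in a fixed total. Milk fat genes moved with acute phase genes (rho 0.43 in PI 1 and 0.40 in PI 2) and with involution genes (0.33 and 0.23), and acute phase genes moved with involution genes (0.21 and 0.27). Milk protein genes rose with involution genes (0.28 and 0.32), and without *Spp1* the values were 0.18 and 0.13. Milk protein genes and hormone-sensing genes went in opposite directions (-0.24 and -0.28), and without *S100a6* the values were -0.07 and -0.09. Leaving out these genes was chosen after seeing the data. Milk protein and luminal progenitor shares were nearly unrelated, at 0.06 and 0.03, and milk protein and milk fat shares had 0.25 and 0.17.

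To set sizes beside these correlations, C7 cells of each mouse were divided into tertiles by their milk protein share, which by itself fixes the direction of the milk genes. The lowest tertile reached up to 0.850% in PI 1 and 1% in PI 2, and the highest began at 1.55% and 1.75%. Summed milk protein level was 4.43 and 4.13 times as high in the highest as in the lowest tertile, *Csn2* 7.02 and 4.91 times and *Csn3* 3.65 and 3.48 times. Outside the list *Spp1* was 6.88 and 4.42 times as high, *Cyp24a1*, the vitamin D hydroxylase, 2.69 and 2.69 times, *Btn1a1* 2.37 and 2.16 times and the lysosomal lipase *Lipa* 2.40 and 1.74 times. The luminal progenitor list differed by 1.10 and 1.06 times only as a sum. Its members did not all move alike, since *Cyp24a1* belongs to it and its member *Ehf* stood at 0.567 and 0.664.

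Other lists were lower in the cells rich in milk transcripts. Chemokine and cytokine genes stood at 0.525 and 0.432 of their level in the lowest tertile, with *Cxcl2* at 0.372 and 0.354, and hormone-sensing genes at 0.533 and 0.570. Basal markers were at 0.285 and 0.380, although their level was low throughout (102 and 358 CPM in the lowest tertile). Dissociation stress genes were at 0.598 in PI 1 and 0.855 in PI 2. Whether this list takes part in the differences between the tertiles was not tested. The median UMI totals of the lowest and highest tertile were 5626 and 7226 in PI 1 and 5771 and 5025 in PI 2, so depth did not differ in the same direction in the 2 mice.

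**Figure D5:**
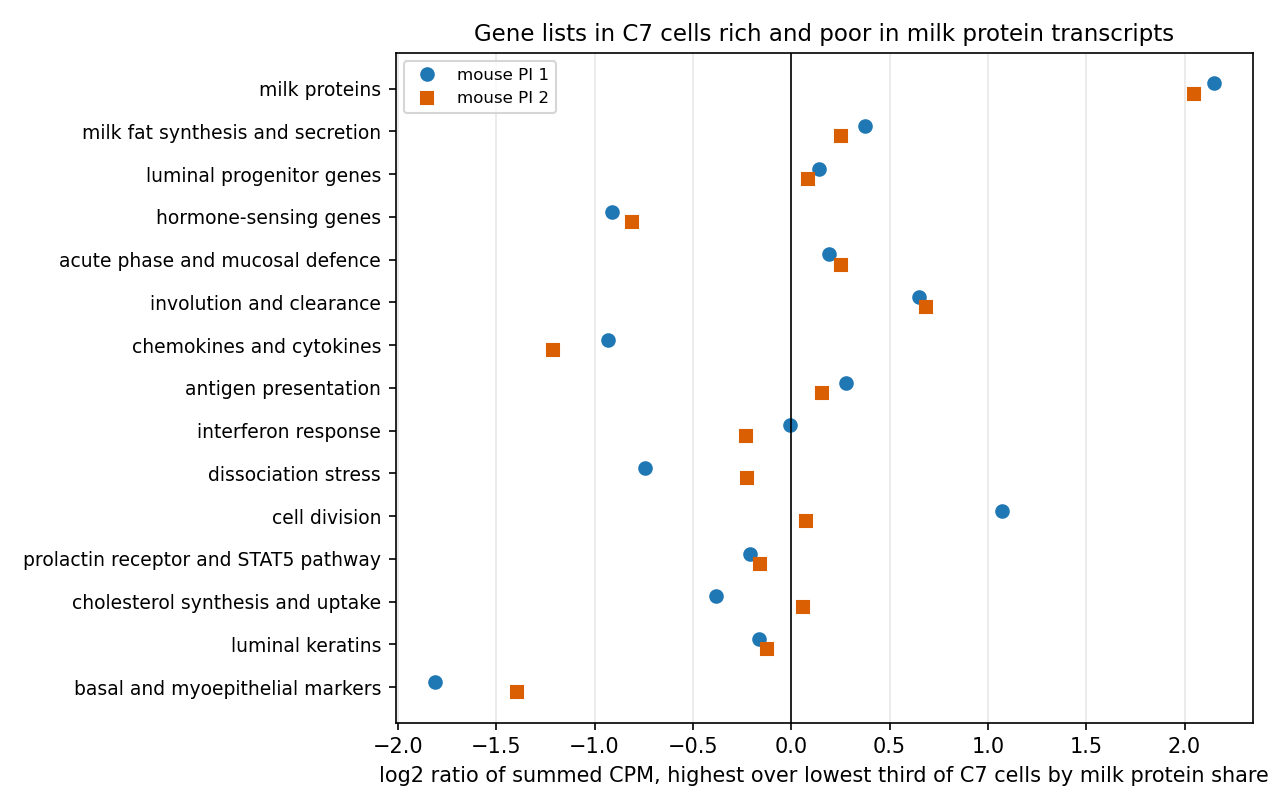
Log2 ratio of the summed level of each gene list in the highest over the lowest tertile of C7 cells by milk protein share (horizontal axis), 1 mark per mouse. Milk proteins lie far to the right at 4.43 and 4.13 times, luminal progenitor genes near 0, and chemokine, hormone-sensing and basal genes to the left in both mice.

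C7 cells were then placed among cells of earlier stages. For every C7 cell the 15 nearest cells were taken from a reference of 5 luminal clusters of NP and G mice, with at most 200 cells each. Nulliparous progenitors (C6) made up 85.7% (PI 1) and 84.8% (PI 2) of these neighbours, gestation alveolar progenitors (C10) 10.8% and 9.60%, gestation differentiated alveolar cells (C8) 2.74% and 4.94%, and nulliparous hormone-sensing progenitors (C2) 0.761% and 0.660%. C6 cells of a nulliparous mouse placed without their own mouse had 98.6% and 97.1% C6 neighbours. C7 cells thus had gestation neighbours more often than C6 cells did, in each mouse of either stage. The shares are not like for like, since the reference held C6 cells of the other NP mouse but no PI cells. C8 neighbours made up 6.81% in the highest milk tertile and 0.535% in the lowest in PI 1, and 11.5% and 1.53% in PI 2. When the milk protein genes were left out of the placement these were 4.46% and 1.80%, and 5.29% and 2.11%. C10 neighbours went the other way, with 7.01% in the highest and 13.3% in the lowest tertile of PI 1 and 8.19% and 9.50% in PI 2, and without the milk protein genes 4.70% and 11.0%, and 3.96% and 5.74%. With all reference cells, of which C8 supplies most, the C8 share rose to 9.13% and 14.2%.

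The question of what parity changes in luminal progenitors was put to a test between mice, with C6 and C7 cells summed together per mouse so that the split between these clusters did not set the groups. The sums held 846 and 1110 cells of the PI mice, of which 824 and 1101 were C7, and 372 and 317 of the NP mice. Of 10766 genes tested with edgeR (quasi-likelihood, Benjamini-Hochberg adjusted p under 0.05), 1494 (13.9%) were higher in PI and 1398 (13.0%) lower. With UMI totals in place of TMM scaling the split was 1205 higher and 1733 lower, and the median log2 change of all genes was -0.10 in place of -0.02. Mice are the replicates, and p-values measure the spread between these 4 mice. An exact permutation test of 1 gene with 2 mice a side has a smallest possible p of 0.333, and the adjusted p-values draw on a spread that edgeR pools across genes. The age of the PI mice is not given in the sources used here, so age and parity cannot be told apart. Per the study's supplement both NP mice were in oestrus, but of the PI mice only PI 2 was. The PI mice were taken at a single time, 11 days after weaning. A lasting effect of parity thus cannot be told apart from one of recent lactation or involution.

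All 7 milk protein genes tested rose, with a median log2 change of 5.78. *Csn2* had 3 UMIs in the NP sums together and 23002 in the PI sums, a ratio of 2822 with a counting interval of 965 to 13684. *Csn1s1* went from 11.8 and 7.45 CPM in NP to 4843 and 5870 CPM in PI (log2 change 9.17, SE 0.27, adjusted p = 7.30e-09 by edgeR). *Csn1s2a* went from 5.13 and 0.828 to 614 and 884 CPM. *Csn3* was already present in NP, at 743 and 1414 CPM, and was at 6500 and 6068 CPM in PI (log2 change 2.62, SE 0.27, adjusted p = 6.07e-05 by edgeR). No overlap between NP and PI mice was a condition for naming *Csn2*, *Csn1s1* and *Csn1s2a*, and so adds nothing for these genes.

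The other genes named for the largest rise were *Spp1*, *Hp*, *Saa1*, *Cyp24a1*, *Pdk4*, *Slc39a8* and *Pkib*. *Spp1* rose by 7.80 on the log2 scale (SE 0.55, adjusted p = 5.35e-06 by edgeR) from 1.51 and 22.4 CPM to 1995 and 2546 CPM. *Hp* rose by 7.77 (SE 0.40, adjusted p = 5.31e-07 by edgeR) from 8.15 and 20.3 CPM to 2047 and 3548 CPM. *Saa1*, a serum amyloid gene whose UMIs may be shared with its close copy *Saa2*, had 1 UMI in NP and 615 in PI, a ratio of 226 with a counting interval of 40.5 to 8954. *Pdk4*, a kinase that restrains pyruvate dehydrogenase, rose by 6.63 (SE 0.23, adjusted p = 3.39e-08 by edgeR).

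Of 20 milk fat genes 15 rose and 5 did not pass, with a median of 1.62. *Plin2* went from 166 and 151 CPM to 1405 and 1275 CPM, and *Lipa* from 12.1 and 14.9 to 146 and 134 CPM. Of 12 acute phase genes 11 rose and the complement component *C3* fell, from 167 and 109 to 31.3 and 29.5 CPM. The median of that list was 3.26, or 2.63 with the 2 genes at 0 in NP set to the bound of 3 counts over the group. Antigen presentation genes rose in 8 of 10 cases, with a median of 0.68. They include class II genes at low level, among them *Cd74*, which had a UMI in 5.95% and 4.72% of C7 cells. The immune marker *Lyz2* rose as well, from 0.302 and 2.48 to 5.57 and 8.10 CPM, 1 of 4 immune markers tested (list median 1.23), and its part in the change was not tested. *B2m* did not pass without NP replicate 1 or without NP replicate 2, *H2-Aa* not without NP replicate 1 or PI replicate 2, *H2-Eb1* not without either NP mouse or PI replicate 2, and *Lyz2* not without NP replicate 1. Of 15 involution genes 10 rose and *Lif* fell, a call lost without either NP mouse and without PI replicate 1.

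The luminal progenitor list was split, with 6 of 14 genes higher, 4 lower and 4 not past the test. Among the rises, *Ehf*, *Tspan8* and *Foxc1* lost their call with DESeq2 and without NP replicate 1. *Ehf* also lost it without NP replicate 2 and without PI replicate 1. *Aldh1a3* fell from 2035 and 1756 CPM to 407 and 291 CPM (log2 change -2.36, SE 0.18, adjusted p = 8.18e-06 by edgeR). *Lypd3*, *Itga2* and *Rspo1* fell with it. *Elf5* rose from 54.0 and 77.4 to 179 and 149 CPM (log2 change 1.41, SE 0.18, adjusted p = 0.000207 by edgeR), and *Cd14* from 292 and 281 to 873 and 569 CPM. *Kit* had 63.7 and 79.5 CPM in NP and 45.6 and 56.5 CPM in PI and did not pass the test (adjusted p = 0.101 by edgeR).

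Of 10 genes of prolactin receptor and STAT5 signalling 2 rose and 8 did not pass. *Stat5a* went from 14.8 and 27.7 to 41.9 and 34.3 CPM and *Ghr*, the growth hormone receptor, from 17.5 and 17.4 to 23.7 and 40.1 CPM. Neither passed without NP replicate 1, and *Ghr* also not without PI replicate 2. *Prlr* had 80.6 and 90.7 CPM in NP and 72.0 and 92.6 CPM in PI (adjusted p = 0.913 by edgeR). Chemokine genes were mixed, with 4 of 10 higher and 3 lower. *Cxcl1* had 2651 and 2834 CPM in NP and 3021 and 2287 CPM in PI and did not pass, *Cxcl5* rose from 41.6 and 20.3 to 234 and 128 CPM, and *Tnf* fell from 127 and 142 to 54.1 and 53.0 CPM. Of 16 dissociation stress genes *Nr4a1* rose, *Egr1* fell and 14 did not pass, and these 2 calls were lost without NP replicate 2 and NP replicate 1, in that order.

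The genes named for the largest fall were *Slc38a1*, *Gm266*, *3110079O15Rik*, *Gm10371*, *Egln3*, *Adamts1*, *S100a3*, *Armcx2*, *Sdpr* and *Tfap2b*. *Slc38a1*, a glutamine transporter, had 45.0 and 33.1 CPM in NP and 1.06 and 1.37 CPM in PI. *Egln3*, an oxygen-sensing prolyl hydroxylase, had 206 and 200 CPM against 11.4 and 17.1 CPM, and *Adamts1*, a secreted protease, 447 and 373 CPM against 33.0 and 40.4 CPM. Log2 changes of the 10 ran from -4.90 to -3.20. Of 14 hormone-sensing genes 6 fell, among them *S100a6* from 4165 and 4048 to 1288 and 1027 CPM, 1 (*Esr1*, the oestrogen receptor) rose from 5.13 and 6.62 to 13.8 and 15.1 CPM, and 7 did not pass. Of 12 interferon genes 6 rose and 1 fell. Among cholesterol genes *Hmgcs1* fell, and of 13 cell division genes *Mcm3* fell. *Krt7* was the keratin of 4 that fell. Of 9 basal markers *Tagln* fell, of 3 fibroblast markers *Col1a2* fell (0.905 and 48.4 CPM in NP, 0.133 and 2.87 CPM in PI), and the 1 endothelial marker tested did not pass. Without NP replicate 1 *Hmgcs1*, *Mcm3* and *Tagln* did not pass, *Hmgcs1* also not without PI replicate 2 and *Mcm3* also not without PI replicate 1. Without NP replicate 2 *Col1a2* did not pass and its log2 change turned positive.

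The 2 post-involution mice, compared with 1 mouse a side and no test, had nearly the same C7 profile although the share of C7 differed. Of 1560 genes with at least 100 CPM in a mouse 1525 were within 1.5-fold of each other. A single gene (0.0641%) was at least 2-fold higher in PI 2 and 6 genes (0.385%) in PI 1. The former was *Gpx3*, an extracellular glutathione peroxidase, with 28.1 CPM (exact Poisson 95% interval 24.4 to 32.2) and 109 CPM (102 to 117). *Gpx3* had 2340 and 3982 CPM in C3, and C3 was also the more frequent in PI 2. The part of C3 transcripts in the *Gpx3* difference between C7 of the 2 mice was not tested. Genes named as higher in PI 1 were *Apod* (121 and 20.3 CPM), *Icam1* (105 and 43.9 CPM), *Lalba*, *Tuba1c* (254 and 119 CPM) and *Scd1*, the stearoyl-CoA desaturase (1168 and 556 CPM). *Lalba* and *Csn2* thus went in opposite directions between the mice, since *Csn2* was 1296 CPM in PI 1 and 1683 CPM in PI 2. The next largest ratios towards PI 2 were *Wisp2* (58.7 and 108 CPM), *Adig* (63.0 and 116 CPM), *Hp* and *Cyp24a1* (65.5 and 111 CPM), each under 2-fold.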

How the data were processed

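Mammary epithelial cells of 8 mice were profiled with 3′ single-cell libraries. The deposited matrices hold whole UMI counts, a value for each gene in each barcode. The authors produced these counts by Cell Ranger (STAR is named in the processing notes) on the mm10 build, with no normalisation. Clusters, quality flags and libraries were taken from the authors' annotation. In PI 2, 1 annotated cell had no barcode in the matrices and 1 barcode had no annotation. The members and gene lists were chosen with earlier results of these data known.

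UMIs of 27998 genes were summed per mouse and cluster and given as CPM. The 2 post-involution libraries had 13785920 and 30591089 UMIs in all, and intervals at 95% and limits from 3 counts cover counting error only. C7 and C3 were compared within each mouse as log2(CPM + 0.5), with no test. Variation used Pearson residuals (negative binomial, theta 100) and co-variation used cells thinned to 2000 UMIs, where a gene of 2 lists counted in the first only. Placement used 500 highly variable genes, 20 principal components and 15 neighbours. PI and NP sums were tested with edgeR 4.0.16 in R 4.3.3 (TMM, filterByExpr with minimum count 10 and minimum total 15, quasi-likelihood F-test, Benjamini-Hochberg adjustment at 0.05, prior degrees of freedom 9.13 and residual 2). All else ran in Python 3.11.15 (scikit-learn 1.9.0, scipy 1.17.1, numpy 2.4.6). On simulated counts for this comparison (10547 genes), 24.5% of 2-fold and 92.8% of 4-fold changes were recovered and 5.04% of calls were false. Every simulated gene was given an assumed dispersion of 0.05 that was not estimated from these counts, so the rates hold for that setting only.

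Genes were named by a rule: the 10 furthest in each direction between C7 and C3 (at least 100 CPM), the 10 largest rises and falls past the test (at least 20 CPM in 1 group, no overlap of mice), the 20 most variable, up to 10 most like *Csn2* or *Aldh1a3*, the 5 largest ratios each way between the mice, and members of the lists. Some genes that the rule names are not reported here. Alternatives were DESeq2 1.42.0, other scaling and filters, a replicate block, each mouse left out, other depths and neighbour settings. Sequences are RefSeq's for GRCm38.p6 and coordinates are those of the GRCm38 gene annotation.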

Additional observations from a re-analysis of the deposited data

How the results depend on the processing

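In the comparison of PI with NP progenitors DESeq2 called 891 genes higher and 699 lower in PI. Leaving out a mouse in turn gave 858 to 1333 higher and 846 to 1139 lower, and the lowest counts of both came without NP replicate 1 (858 and 846). Of the 2892 calls 1562 remained without that mouse, and without NP replicate 2 a single call (*Col1a2*) changed sign. Of the 95 list members called, 70 to 90 kept their call with a mouse left out and 77 with DESeq2. The replicate block gave 1676 higher and 1614 lower. The same numbers name separate mice of different stages, the deviations of same-numbered mice correlated at 0.0571 with 2 pairs, and so the block does not describe a pairing. Without a filter 1952 and 1473 were called. The 20 genes with the largest rises and falls and *Aldh1a3*, *Cd14* and *Elf5* kept direction and call in all 276 alternative values computed. Between C7 and C3, 1675 genes were higher and 2066 lower without a filter on level, and 889 to 966 higher and 1060 to 1226 lower in a single mouse. Variable genes numbered 104 after thinning and 267 to 367 in a single mouse. The mean rho of milk proteins with involution genes was 0.236 at 1000 UMIs and 0.153 without *Spp1*, with stress genes -0.108 at 1000 UMIs, with progenitor genes 0.102 without cells above 2 times the median UMI total, and with hormone-sensing genes -0.0817 without *S100a6*. Of the neighbours, C6, C8 and C10 took 83.4%, 11.7% and 4.53% with all reference cells, C6 and C10 took 82.1% and 11.6% with 50 neighbours, and 89.3% and 6.89% without the milk protein genes. The cause of these shifts was not tested. With 2 mice a stage, 2-fold changes were recovered in few cases in the simulation, at its assumed dispersion. The rate for the real counts was not measured. Genes under 20 CPM were not described between C7 and C3.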

Other observations

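A small number of post-involution cells, 22 in PI 1 and 9 in PI 2, carried the label of the nulliparous progenitor cluster C6. Their summed profile differed from C7 of the same mice. *Hp* had 198 and 129 CPM in them, *Csn2* 39.5 and 73.6 CPM and *Spp1* 6.59 and 36.8 CPM, while *Aldh1a3* had 969 and 901 CPM and *Kit* 198 and 202 CPM. The 10 basal markers summed to 171 and 809 CPM in them and the 6 fibroblast markers to 0 and 570 CPM, against 89.5 and 245 CPM and 0.947 and 21.2 CPM in C7, and the part of other cells in the difference was not tested. Milk protein genes took 0.0534% and 0.0883% of their UMIs. For these 5 genes both mice lay on the nulliparous side of C7, and *Kit* was also above the NP sums (63.7 and 79.5 CPM). The C6 label came from clustering of the same counts, so a profile nearer to C6 was set by how these cells were chosen. In addition 9 cells give few UMIs and no test was run.

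The hormone-sensing progenitor cluster C1 of the same glands (107 and 385 cells) lay between C3 and C7 for most genes. On the linear CPM scale, with C3 set to 0 and C7 to 1, the median position of C1 over the 1668 genes that were at least 2-fold apart was 0.534 in PI 1 and 0.523 in PI 2, and 98.5% and 99.6% of these genes lay between the 2 clusters. Milk protein genes took 0.682% and 0.733% of C1 UMIs. The median C1 cell had 16314 and 11580 UMIs, above C7 (6483.5 and 5579) and C3 (7179 and 5638) in both mice. No doublet caller was run, and the part of doublets in this cluster was not tested.

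Milk transcripts of C7 can be set beside those of the lactating gland. In C11, the alveolar progenitors of lactation (Avp-L), milk protein genes took 7.21% and 5.92% of UMIs, and in their differentiated alveolar cells (C9, Avd-L) 44.8% and 41.7%. *Spp1* had 1672 and 1104 CPM in C11, next to 2036 and 2563 CPM in C7, and *Hp* had 3.70 and 0 CPM there.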
